A study of Mus musculus with 10 samples.

Results

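The piRNA pathway and transposon defence genes described here are Piwil2, Piwil4, Tdrd1, Tdrd9, Tdrkh, Mael, Mov10l1, Asz1, Gpat2 and Ddx4. They were chosen by name, and each was read by the array probe that carries its symbol, 1 probe of 60 bases per gene. They make up 10 of the 36282 genes named on the array. Levels were measured on 10 one-colour Agilent arrays of 6 mouse embryonic stem (ES) cell lines, which are cultures of the pluripotent cells of the early embryo.

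piRNAs are small RNAs carried by Piwi proteins in the germline, where they guide the cleavage of transposon transcripts and the methylation of transposon DNA in the developing male germline. The other proteins of the pathway load and trim piRNAs or hold the complexes in germ granules and on the outer membrane of mitochondria. Most of these genes are known as germline genes that are kept silent in somatic tissues, several of them by methylation of CpG dinucleotides in their promoters. In ES cells that methylation is written by Dnmt3a and Dnmt3b and copied at replication by Dnmt1, and Prdm14 is known as a repressor of Dnmt3b.

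Wild-type J1 cells (Line J1) gave 2 arrays. Line JP-23 is wild-type with stable expression of Prdm14 (called PRDM14 here, 2 arrays), and Line JP-23+3b-3 stably expresses both Prdm14 and Dnmt3b1 (PRDM14_DNMT3B, 2 arrays). Line 8bb is Dnmt3b-/- (Dnmt3b_KO, 2 arrays), Line 36 is Dnmt1-/- (Dnmt1_KO, 1 array) and Line 19-1 lacks Dnmt1, Dnmt3a and Dnmt3b (TKO, 1 array). All lines were grown without feeder cells in serum-containing medium with LIF. Each group is a single line, and nothing in the sources used here says that the 2 arrays of a line came from separate cultures, so the p-values measure only the spread between arrays. No source used here names the promoter that drives either transgene.

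Between 50.0% and 56.0% of the spots on an array were well above background, none was saturated, and the 2 arrays of a line correlated at 0.995 to 0.998 over 18252 genes. The Dnmt1 probe was low in Dnmt1_KO and TKO, and the Dnmt3b probe in Dnmt3b_KO and TKO, each below every other line. The Dnmt3b probe went against the label of PRDM14_DNMT3B: it read 4.10 and 4.17 there, 4.998 and 5.05 in PRDM14 and 7.61 and 7.57 in J1, lower than in PRDM14 by limma (-0.89, SE 0.080, adjusted p = 0.00194). The Prdm14 probe went against the label of both transgenic lines: it read -4.31 and -4.02 in PRDM14, was not above background in PRDM14_DNMT3B and read -0.07 and 0.09 in J1. No source used here says whether either probe can detect its transgene, and both lines are named by their labels. All 7 ES cell markers were well above background on every array. Hprt, a housekeeping gene, was low in J1 alone, at -2.34 and -2.25 against 5.81 to 6.57 on the other arrays, so J1 stood apart from every line it was compared with. In a culture, fewer cells of a kind that express a gene and less RNA per cell cannot be told apart.

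Promoter sequence was available for 9 of the 10 genes in the RefSeq table (build GRCm38.p6). The 250 bases upstream of the annotated start are shown for 5 of them, with each CpG in capitals, because the levels described below differ in lines that lack enzymes which methylate CpGs. Gpat2 (chr2:127424949-127425198, plus strand), Asz1 (chr6:18109062-18109311, minus strand) and Mael (chr1:166238745-166238994, minus strand) are genes that were higher in both lines without Dnmt1. Tdrkh (chr3:94412994-94413243, plus strand) was higher than J1 in Dnmt3b_KO, the transgenic lines and the lines without Dnmt1. Ddx4 (chr13:112652311-112652560, minus strand) did not pass the test described below in any comparison.

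Gpat2: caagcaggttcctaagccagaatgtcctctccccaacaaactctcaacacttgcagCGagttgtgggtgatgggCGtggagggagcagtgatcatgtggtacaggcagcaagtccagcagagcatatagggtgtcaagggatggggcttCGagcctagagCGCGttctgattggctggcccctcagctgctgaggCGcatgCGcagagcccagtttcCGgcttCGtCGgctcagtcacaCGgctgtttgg
Asz1: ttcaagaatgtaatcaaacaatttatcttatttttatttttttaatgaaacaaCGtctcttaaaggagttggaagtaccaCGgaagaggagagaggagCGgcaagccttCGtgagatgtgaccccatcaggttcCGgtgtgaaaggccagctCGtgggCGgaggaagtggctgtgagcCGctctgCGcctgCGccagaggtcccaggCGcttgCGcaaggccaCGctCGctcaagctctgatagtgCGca
Mael: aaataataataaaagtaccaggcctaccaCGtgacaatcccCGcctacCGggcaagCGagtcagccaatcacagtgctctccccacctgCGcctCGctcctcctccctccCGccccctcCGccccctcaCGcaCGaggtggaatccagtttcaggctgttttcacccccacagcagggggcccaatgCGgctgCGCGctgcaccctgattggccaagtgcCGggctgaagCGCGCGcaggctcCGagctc
Tdrkh: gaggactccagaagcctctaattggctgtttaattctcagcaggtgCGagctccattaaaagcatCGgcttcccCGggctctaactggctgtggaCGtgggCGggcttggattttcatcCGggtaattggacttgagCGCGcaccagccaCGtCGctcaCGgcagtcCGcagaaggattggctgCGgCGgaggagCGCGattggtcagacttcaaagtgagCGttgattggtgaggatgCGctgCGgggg
Ddx4: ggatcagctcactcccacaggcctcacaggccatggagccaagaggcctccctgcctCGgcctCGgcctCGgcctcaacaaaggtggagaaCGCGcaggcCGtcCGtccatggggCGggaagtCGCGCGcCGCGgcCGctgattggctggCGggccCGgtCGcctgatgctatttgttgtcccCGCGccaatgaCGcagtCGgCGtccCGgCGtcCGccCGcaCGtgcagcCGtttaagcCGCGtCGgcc

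In the 300 bases around the start, from 250 before to 50 after, Gpat2 had 15 CpGs, Asz1 17, Mov10l1 20, Mael 24, Tdrkh 25 and Ddx4 38. The median over 32851 mouse promoter windows was 7. The Ddx4 window thus had more CpGs than 95.05% of all windows and a CpG count 0.978 times that expected from its base composition, against 0.577 for Gpat2. Tdrd9 had 10 CpGs, while Piwil4 and Tdrd1 have several annotated starts with 0 and 11 CpGs and with 3, 20 and 25 CpGs. The letters CACGTG are the E-box that Myc and Max family factors are known to read. They stood in windows of 5 of the 9 genes (Tdrd1, Tdrd9, Mael, Mov10l1 and Ddx4). By window that was 6 of 12, where the overlapping Tdrd1 windows hold the same site, against 7.15% of all windows. The letters TCCCGC on either strand, which E2F factors are known to read, stood in 3 of the 9 (Mael, Gpat2 and Ddx4). By window that was 3 of 12, against 19.975% of all windows. Both motifs hold a CpG, and the shares over all windows were not matched for CpG number. Both searches covered both strands, and no match of one motif overlapped a match of the other in these windows. Such a match describes letters and is no measured binding.

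Piwil2, a Piwi protein that binds piRNAs and cuts transposon transcripts, was lowest in J1 and higher in both transgenic lines and both lines without Dnmt1. Levels are given as log2 of the background-subtracted signal relative to that array's 75th percentile, so that 0 is the level of the 75th percentile. Piwil2 read -3.91 and -3.57 in J1, -2.55 and -2.93 in Dnmt3b_KO, -0.97 in Dnmt1_KO, -0.61 and -0.55 in PRDM14_DNMT3B, -0.42 and -0.14 in PRDM14 and -0.12 in TKO. The ranges of the lines did not overlap, but TKO lay just above PRDM14 and PRDM14_DNMT3B just below it, by less than the spread of the J1 arrays. Piwil4, the nuclear Piwi protein tied to transposon DNA methylation, was not well above background on any of the 10 arrays.

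The Tudor-domain proteins bind methylated arginines of Piwi proteins. Tdrkh, which anchors Piwi proteins to mitochondria for piRNA trimming, was below background on both J1 arrays and above it on every array of the transgenic lines. Its level was -3.48 and -2.69 in PRDM14, -3.11 and -2.90 in PRDM14_DNMT3B, -2.93 in Dnmt1_KO and -2.93 in TKO. In Dnmt3b_KO it read -3.62 on the array where it was above background, and -4.17 on the other. The 4 lines with the higher levels overlapped or lay inside the spread of PRDM14. Tdrd1, a germ granule scaffold, was well above background on 1 of 10 arrays (PRDM14 replicate 2), and Tdrd9, a helicase of the same family, on none.

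Mov10l1, the RNA helicase that hands piRNA precursors to the processing machinery, was lowest in Dnmt3b_KO and highest in TKO. Its levels were -3.28 and -3.15 in J1, -2.05 and -2.29 in PRDM14, -2.49 and -2.72 in PRDM14_DNMT3B, -1.73 in Dnmt1_KO and -1.14 in TKO. In Dnmt3b_KO it read -3.83 on one array and -4.38, not well above background, on the other. No lines overlapped, but the gap between the transgenic lines was smaller than the spread within either. Ddx4, the helicase of germ granules also known as Vasa, was well above background on all 10 arrays with a range of 0.926 to 1.51, and the ranges of most lines overlapped.

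Asz1, an ankyrin-repeat protein of the mitochondrial membrane in germ cells, was well above background on 2 of 10 arrays. It read -2.35 in Dnmt1_KO and -1.65 in TKO, while the other 8 arrays lay at or below -6.04. Gpat2, an acyltransferase-like protein of mitochondria needed for primary piRNA production, spanned 5.10 log2 units over the arrays. Gpat2 stood at -1.25 and -1.28 in PRDM14_DNMT3B, -0.31 and -0.37 in J1, 0.54 and 0.57 in Dnmt3b_KO, 0.57 and 0.75 in PRDM14, 3.81 in Dnmt1_KO and 3.67 in TKO. The ranges of Dnmt3b_KO and PRDM14 adjoined each other, and those of the other lines stood apart.

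Mael, a germ granule protein required for transposon silencing, was highest in the lines without Dnmt1, at 2.45 in Dnmt1_KO and 2.49 in TKO. Its other levels were 1.30 and 1.44 in J1, 1.54 and 1.70 in PRDM14, 1.49 and 1.55 in PRDM14_DNMT3B and 1.59 and 1.56 in Dnmt3b_KO. PRDM14 overlapped both PRDM14_DNMT3B and Dnmt3b_KO, and J1 lay just below these 3 lines.

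**Figure D1:**
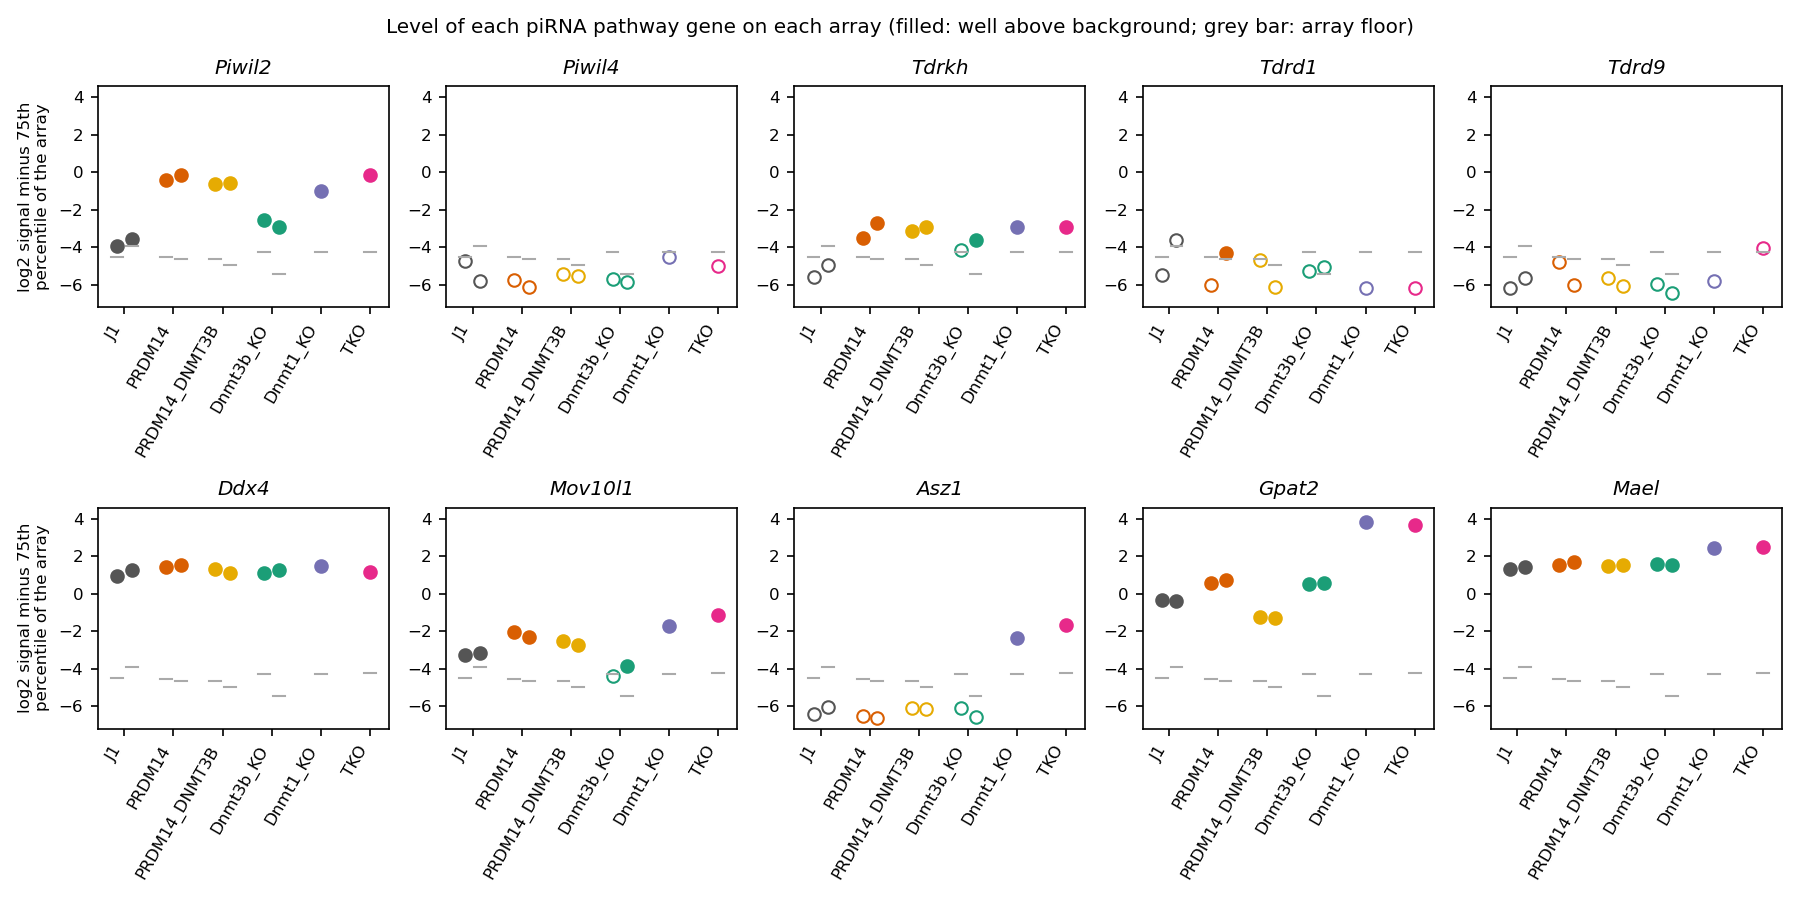
Level of each of the 10 genes on each of the 10 arrays, on the log2 scale with 0 at the 75th percentile, with 1 point per array, the lines along the horizontal axis and open points for values not well above background. The grey bar is the lowest level among probes well above background on that array; Asz1 is filled only in Dnmt1_KO and TKO, and Gpat2 is at 3.81 and 3.67 there.

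Differences between lines were tested with limma over 23811 genes, with all 10 arrays in a single fit and Benjamini-Hochberg adjustment, and are called at an adjusted p under 0.05. Of the 10 genes, 7 entered the test: Piwil4, Tdrd1 and Tdrd9 were not above background on every array of any line. Because Asz1 and Tdrkh entered through the lines where they are high, counts over the 7 are a description.

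The comparison of PRDM14 with J1 asks what differs in the line labelled as expressing Prdm14. Piwil2, Tdrkh, Mov10l1 and Gpat2 were higher and none was lower, 4 of 7 tested. Over all genes 39.6% were called and 20.8% were called higher. Piwil2 was 11.01-fold higher (log2 difference 3.46, SE 0.188, limma adjusted p = 0.000108). Gpat2 was 2.00-fold higher (1.00, SE 0.091, adjusted p = 0.000584) and Mov10l1 2.07-fold (1.05, SE 0.206, adjusted p = 0.0103). Tdrkh was at least 2.17-fold higher (limma adjusted p = 0.00488). Here "at least" sets a line with all arrays below background at the lowest detected level of each array. The probe's own signal was used if that was higher. The Tdrkh p sets the unbounded difference against J1 values below background, so its call is a description here and in the other comparisons with J1. Every array of PRDM14 was above every array of J1 for these 4 genes.

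Mael (0.25, SE 0.097, adjusted p = 0.0943) and Ddx4 (0.38, SE 0.152, adjusted p = 0.101) did not pass in PRDM14 against J1, and Asz1 was below background in both lines. The median log2 difference of the 7 genes was 1.00, or 1.02 over the 6 genes with a measured or bounded value, against -0.03 over all genes. With a normexp background correction in place of the processed signal the differences shrank to 1.79 for Piwil2, 0.38 for Mov10l1 and 0.39 for Tdrkh, with all 3 still called. Without PRDM14 replicate 1 the Mov10l1 call was lost (0.93, adjusted p = 0.0634). Each PRDM14 array had a slide to itself, which means that line and slide cannot be told apart in any comparison with PRDM14.

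Other germ cell genes moved in the same comparison. Of 12 germ cell markers that are not piRNA genes, 11 were above background on every array and their summed level was 26.8 to 27.1 in J1, 70.1 to 73.1 in PRDM14 and 50.7 to 51.0 in PRDM14_DNMT3B, in units of the array's 75th percentile. It was 26.6 to 26.8 in Dnmt3b_KO, 28.5 in Dnmt1_KO and 25.2 in TKO, and Nanos2, which marks male germ cells, was above background nowhere. A sum follows its most abundant members: of the 11 markers 9 were higher and 1 lower in PRDM14 than in J1, but 4 were also higher and 2 lower in Dnmt1_KO, and 5 higher and 2 lower in TKO. Among those, the meiotic gene Hormad1 was 2.44 higher in Dnmt1_KO (adjusted p = 0.000455) and 2.88 in TKO (adjusted p = 0.000333), and the germ cell RNA-binding protein Dazl 1.60 (adjusted p = 0.00707) and 3.44 higher (adjusted p = 0.00068). Trophoblast markers summed to 40.9 to 41.2 in J1 and 2.24 to 2.35 in PRDM14, with 4 of 6 above background in PRDM14 and Elf5 above it nowhere. The keratin Krt8 made up most of that sum, at 5.28 and 5.29 in J1 and 0.28 and 0.44 in PRDM14; of 5 tested markers 4 were lower and Hand1 was higher (1.96, adjusted p = 0.000731). Fibroblast markers summed to 3.59 to 3.99 in J1 and 1.25 to 1.33 in PRDM14, with 3 of 7 above background and Lum and Postn above it nowhere. The part of these cell types in the result was not tested.

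The line labelled as carrying Dnmt3b1 as well was compared with PRDM14; its Dnmt3b probe was the lower of the pair. Only Gpat2 passed, being 3.804-fold lower (log2 difference -1.93, SE 0.091, adjusted p = 0.000625), which is 1 of 7 tested. Over all genes 20.7% were called, 9.81% higher and 10.9% lower. Both PRDM14_DNMT3B arrays were below every array of the other lines for Gpat2. Piwil2 differed by -0.30 (95% interval -0.77 to 0.16, adjusted p = 0.309), Mov10l1 by -0.44 (-0.95 to 0.07, adjusted p = 0.194) and Tdrkh by 0.08 (-0.80 to 0.96, adjusted p = 0.900). These intervals include 0 but are wide, and they do not show equal levels.

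Against J1, the line labelled with both transgenes had higher Piwil2 and Tdrkh and lower Gpat2. That is 3 of 7 tested called, 2 higher and 1 lower, where 39.2% of all genes were called, 19.5% higher and 19.7% lower. Piwil2 was 8.93-fold higher (3.16, SE 0.188, limma adjusted p = 0.000149) and 3.30 and 3.01 higher within the slides that held both lines. On the second of these slides the J1 array was scanned at another time. Gpat2 was 1.90-fold lower (-0.93, SE 0.091, adjusted p = 0.000791; -0.94 and -0.91 within slides) and Tdrkh at least 2.30-fold higher (adjusted p = 0.00423). Mov10l1 differed by 0.61 (SE 0.206, adjusted p = 0.0639) and did not pass. It passed at the same size with slide as a random block (adjusted p = 0.0368), on these 2 lines alone (0.0477) and without either Dnmt3b_KO replicate (0.0274). Under normexp the Piwil2 difference was 1.53 and the Tdrkh difference 0.34, both called.

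The line without Dnmt3b differed from J1 in 4 of the genes, and only the Gpat2 call held under every setting tried. Piwil2, Gpat2 and Tdrkh were higher and Mov10l1 lower, 4 of 7 tested, where 20.9% of all genes were called, 10.8% higher and 10.1% lower. Gpat2 was 1.86-fold higher (0.90, SE 0.091, limma adjusted p = 0.00279, and 0.85 and 0.95 within the 2 slides that held both lines). The J1 array on the second slide was scanned at another time than the Dnmt3b_KO array. Piwil2 was 2.00-fold higher (1.00, SE 0.188, adjusted p = 0.0177; 1.36 and 0.63 within slides). Mov10l1 was 1.85-fold lower (-0.89, SE 0.206, adjusted p = 0.0333; -1.10 and -0.68 within slides). Tdrkh was higher (limma adjusted p = 0.0438), and with J1 at its lowest detected levels the difference was 1.24-fold. That is no strict lower bound, because Tdrkh was above background on 1 of 2 Dnmt3b_KO arrays and the other array kept its own signal. Mov10l1 too was above background on 1 of 2 Dnmt3b_KO arrays. The Mov10l1 call was lost in 12 of 19 alternatives, the Tdrkh call in 11 of 19 and the Piwil2 call in 4 of 20, each including the fit on these 2 lines alone. Without J1 replicate 1 the adjusted p was 0.0881 for Mov10l1, 0.157 for Tdrkh and 0.0698 for Piwil2, and without Dnmt3b_KO replicate 1 it was 0.0968, 0.0762 and 0.0777. Leaving out any other replicate except Dnmt3b_KO replicate 2 also lost the Mov10l1 call (adjusted p from 0.0532 to 0.121), and any other except those of PRDM14 the Tdrkh call (from 0.0605 to 0.176). With normexp Piwil2 differed by 0.18 and Tdrkh by 0.01, both no longer called, and Mov10l1 by -0.36. The Gpat2 call held in all 20. Trophoblast markers summed to 72.2 to 77.7 in Dnmt3b_KO against 40.9 to 41.2 in J1, with 5 of 6 above background, but of 5 tested only Krt8 was higher (0.91, adjusted p = 0.00449) and Gata3 was lower (-1.10, adjusted p = 0.00813). Fibroblast markers summed to 9.44 to 9.51 against 3.59 to 3.99, with 5 of 7 above background; 2 of 5 tested were higher, among them the collagen Col1a1 (3.71, adjusted p = 0.000188), and none was lower, with Dcn at -0.70 (adjusted p = 0.234). Their part in the result was not tested.

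The lines without Dnmt1 were higher than J1 for 6 of the genes. Each has 1 array, so every SE and p for them takes its spread from the lines with 2 arrays and assumes that the lone array varies like those. In Dnmt1_KO, Gpat2, Asz1, Piwil2, Tdrkh, Mov10l1 and Mael were higher, 6 of 7 tested, where 28.1% of all genes were called and 13.1% were called higher. In TKO the same 6 were higher, where 28.4% were called and 13.9% called higher. These comparisons share the J1 arrays. Gpat2 was 17.8-fold higher in Dnmt1_KO (4.15, SE 0.112, adjusted p = 0.000163) and 16.1-fold higher in TKO (4.01, SE 0.112, adjusted p = 0.000197). Asz1 was at least 3.63-fold higher in Dnmt1_KO (adjusted p = 0.000486) and at least 5.87-fold in TKO (adjusted p = 0.000356). Asz1 entered the test through these lone arrays, and its p sets them against values below background, so the call is a description here and in the other comparisons of these lines.

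Piwil2 was 6.79-fold higher in Dnmt1_KO and 12.3-fold higher in TKO, and Mov10l1 was 2.81-fold and 4.22-fold higher. Mael was 2.11-fold higher in Dnmt1_KO (1.08, SE 0.119, adjusted p = 0.00279) and 2.17-fold higher in TKO (1.12, SE 0.119, adjusted p = 0.00215). Tdrkh was at least 2.42-fold higher in both. Ddx4 did not pass in Dnmt1_KO (0.39, SE 0.186, adjusted p = 0.174) or TKO (0.10, SE 0.186, adjusted p = 0.753). The median log2 difference of the 7 genes was 2.36 in Dnmt1_KO and 2.35 in TKO, or 1.49 and 2.08 with Asz1 and Tdrkh at their bounds, against -0.14 and -0.07 over all genes.

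Fibroblast markers summed to 7.71 in Dnmt1_KO and 7.27 in TKO against 3.59 to 3.99 in J1, with 5 of 7 above background in each of these lines. Not every marker moved with that sum. Col1a1 read 0.50 in Dnmt1_KO and 0.02 in TKO against -2.04 and -1.90 in J1, and Thy1 1.79 and 2.01 against 1.51 and 1.29. Dcn read -1.44 and -1.25 against -0.97 and -1.21, and Col3a1 -3.03 and -3.55 against -3.34 and -2.33. ES cell markers summed to 717 in Dnmt1_KO, 942 in TKO and 838 to 959 in J1, with 4 of 7 lower in Dnmt1_KO, among them Pou5f1 (-0.78, adjusted p = 0.00709) and Sox2 (-0.94, adjusted p = 0.00919). Their part in the result was not tested.

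Dnmt1_KO and TKO shared slide 1 with J1 replicate 1, scanned at another time, and within that slide Gpat2 was 4.12 and 3.98 higher, Piwil2 2.94 and 3.79, Mov10l1 1.56 and 2.14 and Mael 1.14 and 1.19. With normexp, Asz1 was 0.71 and 1.13 higher, Piwil2 1.28 and 1.91, Mov10l1 0.55 and 0.95, and Tdrkh 0.33 (adjusted p = 0.119) and 0.45. When only J1 and the line compared were fitted, Mael (adjusted p = 0.0913 and 0.0774) and Tdrkh (0.0733 and 0.0676) were lost in both lines and Mov10l1 (0.0608) in Dnmt1_KO.

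**Figure D2:**
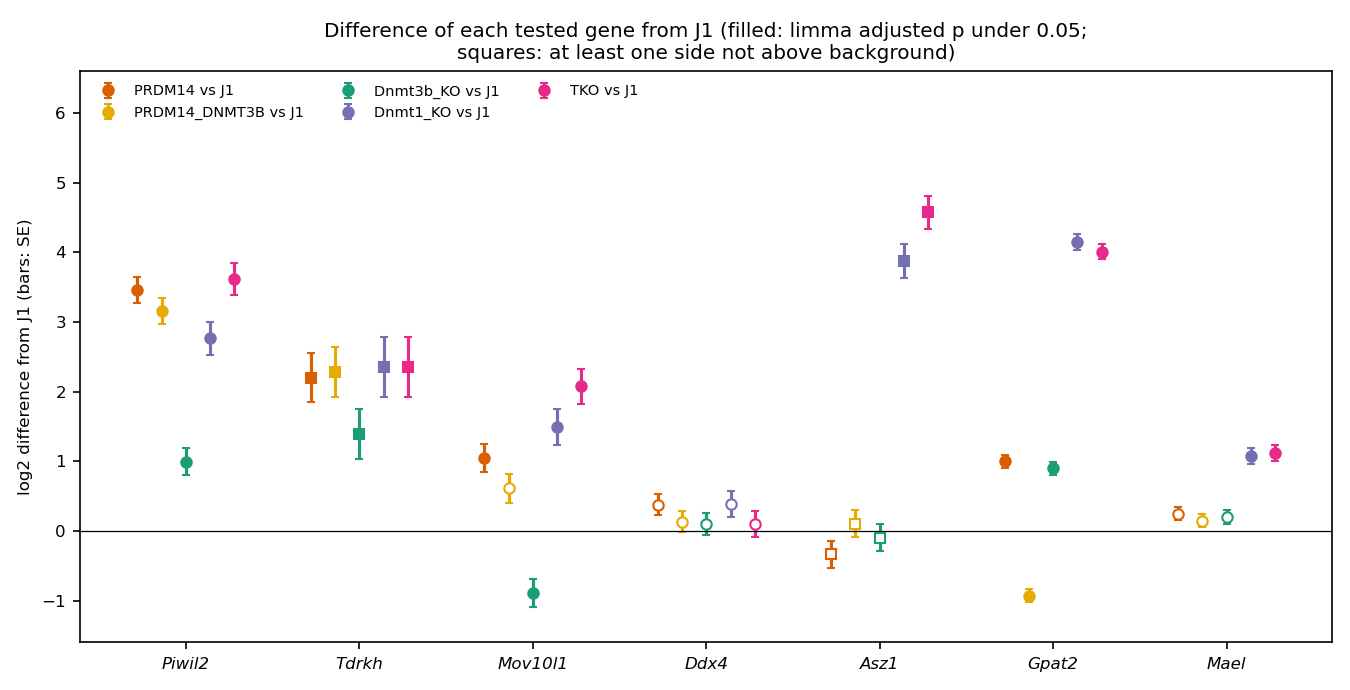
Log2 difference from J1 of the 7 tested genes in each of the 5 other lines, with bars for the SE of the fit, filled symbols for a limma adjusted p under 0.05 and squares where all arrays of a line on at least one side were not well above background. Piwil2 is at 2.76 or above in every line but Dnmt3b_KO, at 1.00, and Gpat2 lies below 0 in PRDM14_DNMT3B alone.

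The comparison of the Dnmt1-deficient lines with Dnmt3b_KO sets lines without Dnmt1 beside a line without Dnmt3b. TKO, which is part of that mean, also lacks Dnmt3a and Dnmt3b, so loss of Dnmt1 alone is not isolated. The mean of Dnmt1_KO and TKO was higher for Gpat2, Asz1, Mov10l1, Piwil2 and Mael, 5 of 7 tested, where 22.3% of all genes were called and 11% were called higher. Gpat2 was 9.09-fold higher (3.18, SE 0.091, adjusted p = 6.96e-05) and Asz1 at least 7.23-fold (adjusted p = 0.000211). Mov10l1 was 6.39-fold (2.68, SE 0.206, adjusted p = 0.000971), Piwil2 4.58-fold (2.20, SE 0.188, adjusted p = 0.00137) and Mael 1.86-fold higher (0.90, SE 0.097, adjusted p = 0.00278). Both Dnmt1-deficient arrays were above both Dnmt3b_KO arrays for each of these. Mov10l1 was well above background on only 1 of the 2 Dnmt3b_KO arrays, so its fold rests partly on a dim value. Tdrkh (0.96, SE 0.355, adjusted p = 0.112) and Ddx4 (0.14, SE 0.152, adjusted p = 0.552) did not pass. Tdrkh passed with slide as a random block (1.13, adjusted p = 0.0215) or a fixed block (1.20, adjusted p = 0.0268) and with normexp (0.38, adjusted p = 0.0407).

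Within slide 1 the differences were 3.20 for Gpat2, 4.08 for Asz1, 2.95 for Mov10l1, 2.01 for Piwil2 and 0.88 for Mael. On that slide Dnmt1_KO and TKO were scanned at another time than Dnmt3b_KO, so line and scan time cannot be told apart. With normexp, Asz1 was 1.26, Mov10l1 1.11 and Piwil2 1.42 higher, all still called. In the fit on these 3 lines alone Mael (adjusted p = 0.0652) and Mov10l1 (adjusted p = 0.0517) were lost. Primitive endoderm markers, which moved with TKO, summed to 2.57 there with 6 of 6 above background, against 0.872 in Dnmt1_KO, 0.76 to 0.876 in Dnmt3b_KO and 0.469 to 0.682 in the remaining lines. Trophoblast markers summed to 69.8 in Dnmt1_KO, 11.6 in TKO and 72.2 to 77.7 in Dnmt3b_KO. The keratin Krt8 made up most of these sums, at 6.07 in Dnmt1_KO, 3.46 in TKO and 6.14 and 6.25 in Dnmt3b_KO. The part of these cell types in the result was not tested.

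The Dnmt1-deficient lines were also set directly against the mean of both transgenic lines, where Gpat2, Asz1, Mov10l1 and Mael were higher. That comparison and the one of TKO with Dnmt1_KO were added after the values were seen. Gpat2 was 16.5-fold higher in the Dnmt1-deficient lines (4.05, SE 0.079, adjusted p = 8.26e-06), Asz1 at least 6.46-fold (adjusted p = 3.28e-05), Mov10l1 1.94-fold (adjusted p = 0.00707) and Mael 1.87-fold (adjusted p = 0.00052). That is 4 of 7 tested, where 46.5% of all genes were called, 19.8% higher and 26.7% lower. With normexp Asz1 was 1.07 and Mov10l1 0.47 higher, both called. Piwil2 differed by -0.12 (95% interval -0.52 to 0.29), Tdrkh by 0.11 (-0.65 to 0.87) and Ddx4 by -0.01 (-0.34 to 0.31), and none of the 3 passed. Between TKO and Dnmt1_KO none of the 7 was called by limma, where 9.08% of all genes were, 4.28% higher and 4.8% lower. These are 2 lone arrays, so the comparison describes those arrays. Piwil2 (0.86) and Asz1 (0.70) had an unadjusted p under 0.05, with the spread taken from other lines.

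PRDM14 against Dnmt3b_KO sets the line labelled as expressing Prdm14 beside a line that lacks an enzyme Prdm14 is known to repress. Piwil2 was 5.52-fold higher (2.47, SE 0.188, adjusted p = 0.000363) and Mov10l1 3.83-fold higher in PRDM14 (1.94, SE 0.206, adjusted p = 0.00119). This is 2 of 7 tested, where 37.2% of all genes were called. In Dnmt3b_KO, Mov10l1 was well above background on 1 of 2 arrays, so its fold rests partly on a dim value. Gpat2 differed by 0.10 (95% interval -0.12 to 0.33, adjusted p = 0.439) and Tdrkh by 0.81 (-0.07 to 1.69, adjusted p = 0.132). With normexp Piwil2 was 1.61 and Mov10l1 0.75 higher, both called, and Tdrkh gained a call (0.38, limma adjusted p = 0.0278).

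Across the 10 arrays the genes fell along different profiles. Mael correlated with Asz1 at r = 0.95 and with Gpat2 at 0.93, and Piwil2 with Tdrkh at 0.91, while Asz1 and Ddx4 correlated at 0.12. These values describe 10 arrays that share 6 lines, and no p is given. Asz1 was well above background on 2 of the 10 arrays and Tdrkh on 7. The r values of these genes, and the mean profile used next, thus rest partly on values below background. The genes outside the set whose level over the 10 arrays was most like the mean of the 7 centred profiles were Smc1b (r = 0.985), H19 (0.979), Fzd9 (0.974), Camkk1 (0.971) and Ezhip (0.971), out of 18248 genes above background on all arrays. Smc1b is a subunit of meiotic cohesin, H19 a maternally expressed imprinted RNA and Ezhip an inhibitor of Polycomb repressive complex 2. As this search picked Smc1b on the same arrays, its differences are a description. It was 2.62 higher in PRDM14 and 4.19 higher in Dnmt1_KO than in J1, and 1.20 lower in PRDM14_DNMT3B than in PRDM14.

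Other piRNA pathway genes were taken from a list of 22, of which 18 were tested. In PRDM14 against J1, 10 were higher, 2 lower and 6 did not pass, with a median of 0.77 against -0.03 over all genes, of which 39.6% were called and 20.8% called higher. In the Dnmt1-deficient lines against Dnmt3b_KO, 4 were higher, 3 lower and 11 did not pass, with a median of -0.06 against -0.02 over all genes, of which 22.3% were called. That count of 7 became 4 without Dnmt3b_KO replicate 2, with no filter or on these lines alone, and 11 with slide as a random block. These 2 comparisons share no array, but their p-values draw on the same spread of a single fit. The genes named from this list were picked by their differences in these comparisons. Fkbp6, a co-chaperone of piRNA loading, was higher in both (3.95, SE 0.165, adjusted p = 5.32e-05, and 5.24, SE 0.165, adjusted p = 7.77e-05). Gtsf1, a zinc finger partner of Piwi proteins, was also higher in both (1.40, adjusted p = 0.000314, and 2.92, adjusted p = 0.00012). So were Stk31, a Tudor-domain protein (2.02 and 2.03), and Tex15, which binds the nuclear Piwi protein (0.59 and 2.16). The Tex15 call in PRDM14 was lost with normexp (0.17, adjusted p = 0.228), without J1 replicate 2 (0.49, adjusted p = 0.0541) and without PRDM14 replicate 1 (0.48, adjusted p = 0.0631). In the Dnmt1-deficient lines Tdrd5, Pnldc1 and Morc1 were the 3 lower genes.

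Rnf17, a Tudor-domain germ granule protein, was at least 2.81-fold higher in PRDM14 than in J1 (limma adjusted p = 0.0295). Both J1 arrays were below background, so that p belongs to the unbounded difference of 2.63 and the call is a description. The call was lost in 6 of 17 alternatives. Among these, the difference was 2.82 without PRDM14 replicate 1, 2.44 without PRDM14 replicate 2 and 2.63 without either PRDM14_DNMT3B replicate. Rnf17 differed by -0.24 in the Dnmt1-deficient lines (limma adjusted p = 0.840). Tdrd7, another Tudor-domain scaffold, was lower in PRDM14 (-2.12, adjusted p = 0.00163) and differed by -0.15 in the Dnmt1-deficient lines (adjusted p = 0.730). Fkbp6, like Gpat2, was lower in PRDM14_DNMT3B than in PRDM14: it read 0.28 and 0.27 in PRDM14 and -3.51 and -3.52 in PRDM14_DNMT3B (log2 difference -3.79, SE 0.165, adjusted p = 0.000618). Its levels were -3.53 and -3.82 in J1, the second not above background, 1.55 in Dnmt1_KO and 1.96 in TKO. In PRDM14_DNMT3B against PRDM14, 20.7% of all genes were called, 9.81% higher and 10.9% lower. Of the 18 genes, 3 were higher and 1, Fkbp6, was lower, a count near that share. Tex15 was higher by 0.96 (limma adjusted p = 0.00526). These 4 calls became 2 without PRDM14 replicate 1 or either PRDM14_DNMT3B replicate, 7 with normexp or an intensity trend and 8 with the replicate block. Tdrd7 (1.17, adjusted p = 0.0284) was among the 4, and its call was lost without any one replicate of PRDM14, PRDM14_DNMT3B or Dnmt3b_KO (adjusted p from 0.0523 to 0.135) and with no filter (0.0589).

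**Figure D3:**
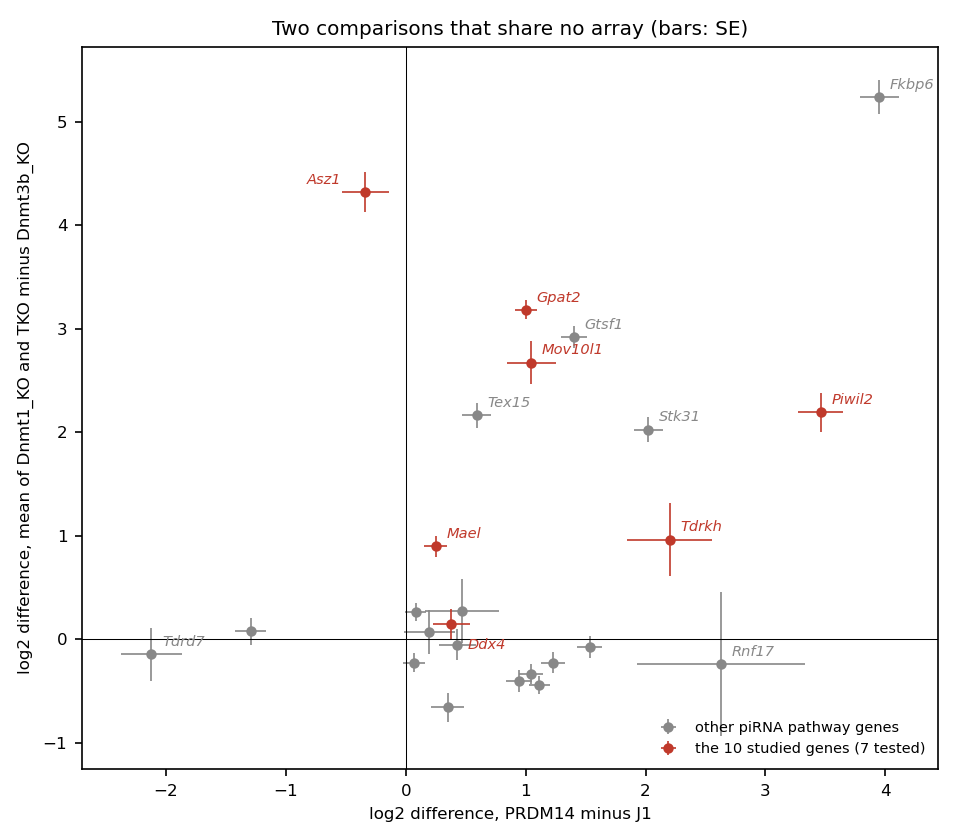
Log2 difference in PRDM14 minus J1 (horizontal) against the mean of Dnmt1_KO and TKO minus Dnmt3b_KO (vertical) for the 7 tested genes in red and 18 other piRNA pathway genes in grey, with bars for the SE. Fkbp6 lies highest at 5.24 and farthest right at 3.95, Asz1 lies high on the vertical axis alone, and Rnf17 far right on the horizontal axis alone. Differences are drawn without bounds, so the points of Rnf17, Tdrkh and Asz1 rest partly on values below background.

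A further list held genes that restrain transposons outside the piRNA pathway. Of 16 tested, 6 were higher and 3 lower in PRDM14 against J1, where 39.6% of all genes were called, with a median of 0.11. In the Dnmt1-deficient lines against Dnmt3b_KO 2 were higher and 1 lower, with a median of -0.10; this count of 3 is near the 22.3% of all genes called, and ranged from 1 (without Dnmt3b_KO replicate 1, or on these lines alone) to 8 (intensity trend). Tex19.1, which guards the germline and placenta against retrotransposons, was higher in both comparisons (0.88, adjusted p = 0.00102, and 2.15, adjusted p = 0.000194). The Tex19.1 levels were 5.89 and 5.84 in PRDM14, 5.39 and 5.25 in PRDM14_DNMT3B, 5.02 and 4.96 in J1, 4.21 and 4.09 in Dnmt3b_KO, 6.41 in Dnmt1_KO and 6.20 in TKO, with no overlap between these lines. Mov10, the somatic paralog of Mov10l1, was higher in PRDM14 (0.79, adjusted p = 0.00783) and lower in the Dnmt1-deficient lines (-0.85, adjusted p = 0.0114), the latter call lost without Dnmt3b_KO replicate 1 (-0.74, adjusted p = 0.0589) and in the fit on the 3 lines alone (adjusted p = 0.0896). Trex1 (0.82), Zfp809 (0.87) and Atf7ip (0.68) were higher and Samhd1 (-1.14) lower in PRDM14 than in J1. Zfp809 and Atf7ip act with the Trim28 and Setdb1 silencing machinery, and Trex1 and Samhd1 degrade DNA or nucleotides.

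Of the transposons themselves, the array named a single probe for the intracisternal A particle, an endogenous retrovirus that is known to be silenced by DNA methylation. It was well above background in Dnmt1_KO, at 0.34, and in TKO, at -0.48, and on no other array. The other 8 arrays read between -6.27 and -4.71. The 2 lines with signal are those in which Asz1 was detected. The probe is described without a test, and its sequence family has many genomic copies that a single probe cannot tell apart.

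**Figure D4:**
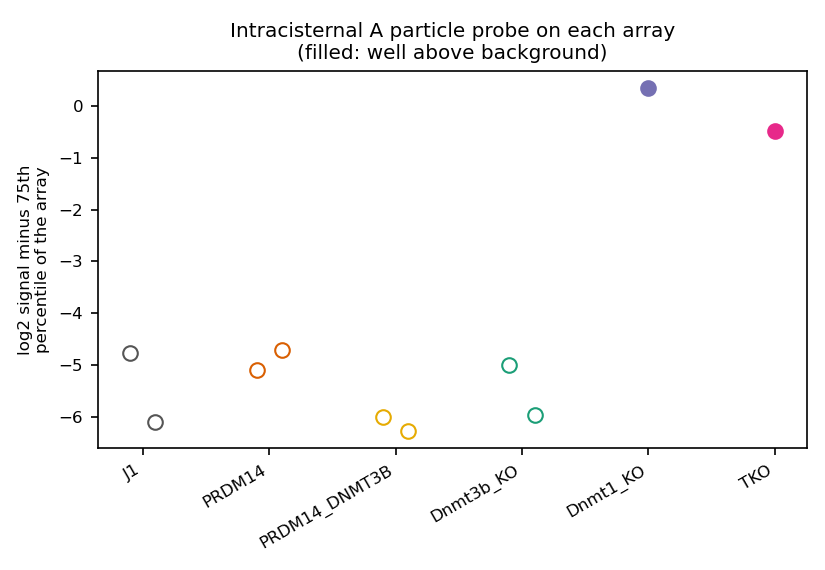
Level of the intracisternal A particle probe on each of the 10 arrays, on the log2 scale with 0 at the 75th percentile, with 1 point per array and open points where the probe was not well above background. Only Dnmt1_KO (0.34) and TKO (-0.48) are filled.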

How the data were processed

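RNA from 10 samples of mouse ES cell lines was amplified, labelled with Cy3 and hybridised to one-colour Agilent arrays, per the labels' protocols. The authors deposited scanner output with background-subtracted intensity per spot, made with Agilent Feature Extraction 10.7.3.1 per the submitters' processing notes, and a table of log2 values. That table correlated at 0.999 or more with log2 of the scanner intensity on each array, with a column median of 4.24, and no source used here says how it was normalized.

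From the scanner intensity, log2 was taken and the 75th percentile of each array (243 to 337 intensity units) was subtracted. Control spots were dropped, which left 59305 spots. Values of spots marked as outliers were then dropped, and spots of a probe were averaged. Probes stayed in if all arrays of some line had them well above background, and a gene took its probe of highest mean, which left 23811 genes. The main test was limma 3.58.1 in R 4.3.3 on all 10 arrays with a mean per line and no covariate, on 4 residual degrees of freedom. The number of arrays limits the precision. The script was tested on simulated data.

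The genes and lists were chosen with earlier results of these data known. All 10 genes are described; from each other list up to 6 called genes with the largest difference in PRDM14 against J1 or in the Dnmt1-deficient lines against Dnmt3b_KO were named. Alternatives were normexp background correction (offset 50), quantile normalization, the authors' log2 table, other probe filters and summaries, fits on fewer lines, slide and replicate blocks, an intensity trend and leaving out each replicate. Symbols were updated through RefSeq accessions (20869 of 22232 matched). Probe positions on the array refer to mouse build mm9 and were not converted.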

Additional observations from a re-analysis of the deposited data

How the results depend on the processing

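Of 1208 values of the 7 tested genes under 20 alternatives, 1143 kept their direction and side of the threshold, 36 lost and 12 gained a call, and 17 turned direction, all of them uncalled before and after. The turned values were -0.13 (normexp) for Ddx4 in PRDM14_DNMT3B against J1, and 0.14 (normexp), 0.075 (quantile), 0.071 (authors' table) and 0.018 (slide as a random block) for Ddx4 in the Dnmt1-deficient against both transgenic lines. For Tdrkh they were -0.05 in PRDM14_DNMT3B against PRDM14 and 0.13 in TKO against Dnmt1_KO, and for Mael -0.011 in TKO against Dnmt1_KO, all with normexp. Leaving out each replicate gave Ddx4 -0.025 to 0.30 in PRDM14_DNMT3B, -0.061 to 0.26 in Dnmt3b_KO and -0.065 to 0.26 in TKO against J1, Tdrkh -0.31 to 0.47 in PRDM14_DNMT3B against PRDM14, Mael -0.032 to 0.13 in PRDM14 against Dnmt3b_KO, and Ddx4 -0.074 to 0.046 and Tdrkh -0.085 to 0.31 in the Dnmt1-deficient against both transgenic lines. Among the listed genes, in the Dnmt1-deficient lines against Dnmt3b_KO, Rnf17 turned to 0.15 and 0.30 (slide as random and fixed block) and ranged from -0.60 to 0.12 without a replicate, Samhd1 turned to 0.041 (quantile) and 0.029 (authors' table) and Tdrd7 to 0.041 (slide as a fixed block), and Zfp809 turned to -0.26 (mean of probes) in PRDM14_DNMT3B against PRDM14. The cause was not tested.

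With only genes above background on all 10 arrays, which leaves out Mov10l1, Asz1 and Tdrkh, the called genes of the set numbered 2 in PRDM14 and 2 in Dnmt3b_KO against J1, 3 in Dnmt1_KO, 3 in TKO, 1 in PRDM14 against Dnmt3b_KO, 3 in the Dnmt1-deficient lines against Dnmt3b_KO and 2 against both transgenic lines. In Dnmt3b_KO against J1 the 4 calls became 2 under quantile normalization, the authors' table or no filter, 1 with only these lines and 1 to 3 without a replicate. With only the lines compared, 3 remained in Dnmt1_KO against J1 and 3 in the Dnmt1-deficient lines against Dnmt3b_KO. TKO against Dnmt1_KO gained 1 call, Asz1, under quantile normalization and in the authors' table, and could not be fitted on those lines alone. Leaving out each replicate gave 3 to 4 calls in PRDM14 and in PRDM14_DNMT3B against J1, and no other change in the count.

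Over all genes, no filter gave 2977 called in Dnmt3b_KO, 4068 in Dnmt1_KO against J1, 2985 in PRDM14_DNMT3B against PRDM14, 3387 in the Dnmt1-deficient lines against Dnmt3b_KO and 1093 in TKO against Dnmt1_KO, against 4973, 6696, 4929, 5314 and 2161 with the settings of the report. Only the lines compared gave 1867 in Dnmt3b_KO, 797 in Dnmt1_KO, 1001 in TKO (6772 before) and 799 in the Dnmt1-deficient lines. Slide as a random block gave 8471 in Dnmt3b_KO, 10121 in Dnmt1_KO and 4413 in TKO against Dnmt1_KO. Leaving out a replicate gave 2425 to 4125 in Dnmt3b_KO against J1, 1905 to 4681 in PRDM14_DNMT3B against PRDM14, 5713 to 8770 in PRDM14 against Dnmt3b_KO (8862 before), 2685 to 5073 in the Dnmt1-deficient lines against Dnmt3b_KO and 1321 to 1921 in TKO against Dnmt1_KO. Quantile normalization moved the share of higher among called genes in Dnmt1_KO against J1 from 46.6% to 58.4%, and the median of all genes from -0.14 to -0.04. Filters and smaller fits moved that share further: to 34.8% with genes above background on all 10 arrays, 58.0% with no filter and 89.3% with only the lines compared, which also gave 78.0% in TKO against J1 (48.9% before) and 78.5% in the Dnmt1-deficient lines against Dnmt3b_KO (49.4% before).

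Replicate numbers are shared by the 4 lines with 2 arrays, and same-numbered arrays deviated together (r = 0.26 to 0.51), but no label says what a number marks. With the replicate block 11397 genes were called in PRDM14 against J1 instead of 9422, and Tdrkh gained a call in PRDM14 against Dnmt3b_KO (0.81, adjusted p = 0.0143); no other call among the 7 genes changed. Levels near background limit what can be said of Piwil4, Tdrd1, Tdrd9, Asz1 and Tdrkh, and of Mov10l1 in Dnmt3b_KO.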

Other observations

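Beside the intracisternal A particle, 8 further probes carried a transposon word in their description. The probe LOC637916, described as LINE-1 related, read 1.21 and 0.79 in J1 and was above background on 1 other array, Dnmt1_KO, at -3.84. L1td1, a domesticated LINE-1 protein of ES cells, read between 7.37 and 7.84 on all 10 arrays. Gin1, an integrase-like gene, lay between -2.67 and -1.50. Erv3 was above background on 4 arrays, Rtl1 and Rgag1 on none, and Rgag4 on 1 array for 1 of its 2 probes.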
